A study of Mus musculus with 6 samples.

Results

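The genes followed here are 10 of the p53 pathway: Trp53, which encodes the transcription factor p53, and its targets and regulators Mdm2, Mdm4, Cdkn1a, Ccng1, Btg2, Sesn2, Gdf15, Plk2 and Ppm1d. The set was taken by gene symbol, with no measured value in the rule, and all 10 were among the 14162 genes measured by RNA-seq in whole mouse lungs at E12.5. The mutant lungs, called Dnmt1KO, came from 3 samples labelled ShhCre-Dnmt1KO, in which Cre recombinase made from the Shh locus removes Dnmt1, the maintenance DNA methyltransferase. Their comparison group, called WT, was 3 samples of wild-type littermates. The Shh locus is active in the endoderm that forms the airway epithelium, while mesenchyme, vessels and mesothelium of the same lung lie outside that lineage. The labels name no Cre allele for the WT samples and do not say whether each sample was a separate embryo, so the tests measure the spread between these samples, which may be technical.

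In dividing cells p53 is held low by the ubiquitin ligase Mdm2 and its relative Mdm4, and it is stabilised when DNA damage or other stress interrupts that hold. Stabilised p53 switches on genes that stop the cell cycle, with the p21 gene Cdkn1a as the best known, and it also switches on Mdm2, Ccng1 and Ppm1d, whose products restrain p53 in turn. Loss of Dnmt1 is known to activate p53 in cultured mouse fibroblasts. Because p53 is controlled largely through protein stability, its own transcript is not a measure of its activity.

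The recovered reads totalled between 18192629 and 21046831 in the Dnmt1KO libraries and between 20599736 and 25597662 in the WT libraries. Dnmt1, the targeted gene, had 8723, 8565 and 8388 reads in Dnmt1KO replicates 1, 2 and 3, against 13466, 10786 and 12602 in WT replicates 1, 2 and 3. Its log2 fold change was -0.31 ± 0.09 (SE), with every Dnmt1KO library below every WT library, and limma did not call it (adjusted p = 0.507). All 9 listed markers of lung epithelium were detected in every library, at a summed 643 to 932 RPM in Dnmt1KO and 768 to 881 RPM in WT. RPM are reads scaled to a library total of 1000000. Of the 9 markers, 4 had a positive log2 fold change, up to 0.17, and 5 a negative one, and limma called none. At an unadjusted p under 0.05, 2 were lower, Shh and Foxa2 (-0.42 ± 0.18 SE), against 1.60% of all genes, and none was higher. Shh, 1 of the 9 and the gene whose locus makes the Cre, had 361, 608 and 777 reads in Dnmt1KO replicates 1, 2 and 3, against 1191, 1273 and 1325 in WT (-0.98 ± 0.22 SE, limma adjusted p = 0.213). Dnmt1KO replicate 1 held 3 reads over 4 Y-linked genes, against 4155 to 5207 in each of the other 5 libraries, so it differed from them in sex. The part of the Cre allele itself in the Shh values was not tested. In such bulk samples fewer cells of a type and less RNA per cell cannot be told apart.

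p53 binds a consensus of 20 letters known as the p53 response element, made of a pair of decamers side by side. The 250 bases before each RefSeq transcript start (build GRCm38.p6) were searched for it on both strands, without a spacer, and the best stretch of each window was scored by how many of its 20 letters fit. All 10 genes had at least 1 window, 13 windows in all. Cdkn1a and Ccng1 each held a stretch with 19 matching letters, a score reached in 0.0505% of the 13865 windows of measured genes. Of the 10 genes, Gdf15 (log2 fold change 4.76, on few reads), Cdkn1a (2.69) and Ccng1 (1.10) differed most between the groups. The best Gdf15 stretch matched in 15 letters. The search was chosen with earlier results of these data known, and any part of such elements in the values was not tested. The Cdkn1a and Ccng1 windows are printed because they hold 19 matching letters. Each is written 5′ to 3′ along the gene, with the 20 bases of the element in capitals. The Cdkn1a window, before the more upstream of its 2 listed starts, is chr17:29090729-29090978 on the plus strand. The best stretch before the other Cdkn1a start, at chr17:29093697-29093716, matched in 15 letters. The Ccng1 window is chr11:40755287-40755536 on the minus strand.
Cdkn1a: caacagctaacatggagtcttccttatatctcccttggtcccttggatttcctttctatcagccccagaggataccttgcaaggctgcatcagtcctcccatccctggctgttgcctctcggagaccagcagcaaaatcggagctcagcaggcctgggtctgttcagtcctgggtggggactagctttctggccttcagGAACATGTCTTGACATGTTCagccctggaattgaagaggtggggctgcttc
Ccng1: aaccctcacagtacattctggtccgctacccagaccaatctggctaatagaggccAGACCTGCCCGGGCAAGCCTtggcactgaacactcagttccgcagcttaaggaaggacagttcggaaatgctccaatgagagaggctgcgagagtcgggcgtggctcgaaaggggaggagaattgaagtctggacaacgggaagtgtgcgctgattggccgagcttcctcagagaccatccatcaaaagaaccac

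The element lay 51 to 32 bases before that Cdkn1a start, at chr17:29090928-29090947, and 195 to 176 bases before the Ccng1 start, at chr11:40755462-40755481. The windows of the other 8 genes scored 17 letters or fewer. The best stretches of Gdf15, Sesn2 and Mdm2, the other genes with an unadjusted p under 0.05 between the groups, and of Trp53 follow, with capitals for the letters that fit and lower case for those that break the consensus.
Gdf15: GGGgATaCTgAGGCAgGCaC
Sesn2: GGGCgAGCgCtGGCAgtTCC
Mdm2: GAACTTGCCTAGcgAccaTT
Trp53: GGACTTGCCCttACTTGTTa

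Those of Gdf15, Sesn2 and Mdm2 matched in 15 letters, the median over the windows of all measured genes, and that of Trp53 in 17. Among the remaining genes Mdm4 reached 17 letters, Ppm1d 16, and Btg2 and Plk2 14 each. The elements described for Mdm2 lie in its first intron, outside the window searched. Of 10826 measured genes with a window, 7 held a stretch of 19 or more letters. Besides Cdkn1a and Ccng1 these were Sptbn4, with a log2 fold change of 0.89, Calhm2 (0.10), Rps27l (0.08), Mthfd1 (-0.11) and Bco1 (-0.35), none of them past the test (adjusted p = 0.742 for Sptbn4 and 1 for the other 4). A match describes letters and does not show that p53 was bound.

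In the comparison of Dnmt1KO with WT, the 10 genes fell into a part with higher values and a part with nearly level values. Cdkn1a, Ccng1 and Gdf15 stood more than 2-fold above WT, Sesn2 and Mdm2 stood above WT by less, and the other 5 differed by less than 10%. None passed limma's test over all genes at an adjusted p of 0.05, where 0.282% of genes were called higher and 0.00706% lower, and voom on the recovered reads called none of the 10 either. At an unadjusted p under 0.05, 5 of the 10 were higher and none lower, against 2.92% and 1.60% of all genes. A fold change of at least 2 was seen in 3 of the 10 and in 1.82% of all genes. Every Dnmt1KO library lay above every WT library in 4 of the 10, namely Cdkn1a, Ccng1, Gdf15 and Mdm2, against 4.79% of all genes, and none of the 10 showed the opposite order, which 3.99% of genes did. Gdf15, in each of these counts of higher genes, had 6 WT reads in all, under the lowest gene total of 60 in these data. It was measured through its Dnmt1KO reads, so its place in these counts is not independent of its being higher. As a set the 10 had a median log2 fold change of 0.173, against -5.9e-05 over all genes.

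**Figure D1:**
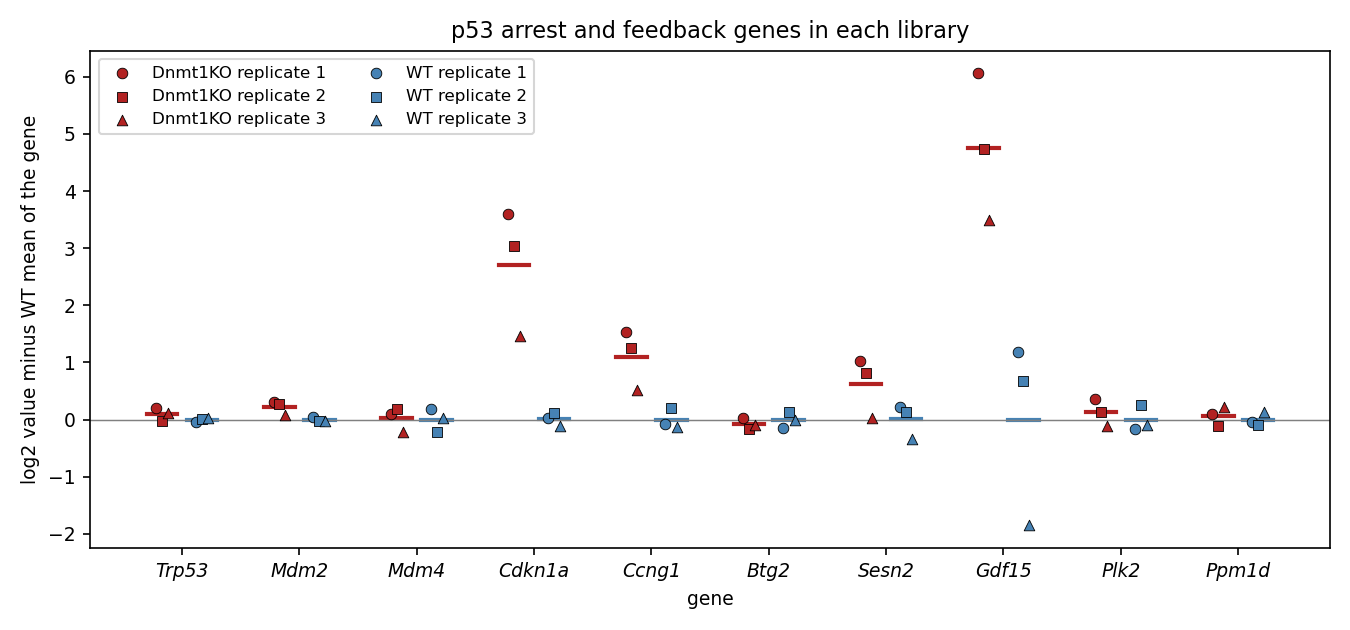
Each point is 1 library's deposited log2 value minus the WT mean of that gene, with Dnmt1KO in red and WT in blue, and bars mark group means (n = 3 each). Dnmt1KO replicate 1 stands highest and replicate 3 lowest of the 3 knockouts for Cdkn1a, at 3.60 and 1.46, and for Ccng1, at 1.53 and 0.51. The Trp53, Btg2, Mdm4, Plk2, Ppm1d and Sesn2 points of both groups overlap.

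Cdkn1a encodes p21, which binds and blocks cyclin-dependent kinases and so halts the cell cycle. It had 1021, 761 and 268 reads in Dnmt1KO replicates 1, 2 and 3, against 119, 100 and 98 in WT replicates 1, 2 and 3. After the authors' scaling these knockout libraries stood at 12.1-fold, 8.16-fold and 2.75-fold of the WT geometric mean, the measure used below for single libraries. The lowest knockout library was thus above all WT libraries, which lay close together. On the log2 scale the means were 11.58 ± 1.11 in Dnmt1KO lungs and 8.88 ± 0.12 in WT lungs (SD, n = 3 each), a fold change of 6.47 with a 95% confidence interval of 2.93 to 14.3. That difference had an unadjusted p of 0.000756, rank 84 of 14162 genes, and limma's adjusted p was 0.128. In the GRCm38 annotation Cdkn1a exons share 273 bases with a gene model on the opposite strand that was not analysed here, and reads of the pair cannot be told apart if counting ignored strand, which the sources used here do not state.

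Ccng1 encodes cyclin G1, which brings a phosphatase to Mdm2 and so helps Mdm2 to restrain p53. Its reads were 2357, 2168 and 1345 in Dnmt1KO lungs, against 1078, 1048 and 947 in WT lungs. The knockout libraries stood at 2.88-fold, 2.40-fold and 1.42-fold of the WT mean, in the same order as for Cdkn1a and again without overlap. The log2 fold change was 1.10 ± 0.24 (SE), a fold change of 2.14 with an interval of 1.46 to 3.15 (limma adjusted p = 0.219).

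Gdf15 encodes a secreted stress cytokine that both p53 and the integrated stress response can induce. It had 94, 41 and 18 reads in Dnmt1KO replicates 1, 2 and 3 and was nearly silent in WT replicates 1, 2 and 3, with 4, 2 and 0 reads. The ratio of scaled reads over the groups was 29.5, with an exact 95% counting interval of 13.3 to 81.7 that leaves out the spread between libraries. Its fitted log2 fold change was 4.76 ± 0.95 (SE, limma adjusted p = 0.141). That value depends on the offset added to the few WT reads, being 3.79 with an offset of 2 reads and 2.21 on the RPM scale. Without WT replicate 3, the library at 0 reads, it was 3.83.

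Sesn2 encodes a sestrin, which curbs growth signalling through mTORC1 and is also a target of the integrated stress response. In Dnmt1KO replicates 1, 2 and 3 it had 683, 652 and 392 reads, against 541, 402 and 334 in WT replicates 1, 2 and 3. Replicates 1 and 2 of the knockout stood at 2.05-fold and 1.77-fold of the WT mean and replicate 3 at 1.02-fold, inside the range of WT. The log2 fold change of 0.63 ± 0.26 (SE) had an interval of 0.03 to 1.23 and did not pass (limma adjusted p = 1).

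Btg2 encodes an antiproliferative adaptor of the deadenylase that shortens mRNA tails, and Plk2 a kinase of the polo family. Both are known also as immediate early genes. Btg2 had 651, 626 and 687 reads in the knockout libraries, against 808, 780 and 813 in WT. After scaling the groups overlapped, at 11.72 ± 0.10 in Dnmt1KO lungs and 11.80 ± 0.14 in WT lungs (SD, n = 3 each), a fold change of 0.944 with an interval of 0.797 to 1.12. Plk2 had 6463, 6049 and 5368 reads in Dnmt1KO lungs and 6296, 6631 and 5955 in WT lungs. Its groups overlapped too, with a fold change of 1.09 and an interval of 0.864 to 1.38. For both, limma's adjusted p was 1.

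Besides Ccng1, the feedback genes Mdm2, Mdm4 and Ppm1d had fold changes of 1.16, 1.01 and 1.05. Mdm2, the ubiquitin ligase that p53 itself induces, had 1562, 1696 and 1545 reads in Dnmt1KO lungs and 1828, 1379 and 1579 in WT lungs. Scaled to library size, Dnmt1KO replicates 1, 2 and 3 stood at 1.23-fold, 1.21-fold and 1.06-fold of the WT mean, each above all WT libraries. The fold change was 1.16 with an interval of 1.01 to 1.34 (unadjusted p = 0.0359, limma adjusted p = 0.989). Mdm2 has a constitutive and a p53-dependent promoter, and a value for the whole gene holds transcripts of both.

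Mdm4, which binds p53 and blocks its activity, had 1682, 1988 and 1581 reads in Dnmt1KO lungs and 2524, 1518 and 2033 in WT lungs, a fold change of 1.01 with an interval of 0.820 to 1.25. Ppm1d encodes the Wip1 phosphatase, which removes activating phosphates from p53 and its kinases. It had 729, 703 and 922 reads in Dnmt1KO lungs and 927, 711 and 959 in WT lungs, a fold change of 1.05 with an interval of 0.875 to 1.25. The groups of both genes overlapped, limma's adjusted p was 1 for each, and the sign of each small difference turned as single libraries were left out.

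Trp53 itself had 4412, 4154 and 4804 reads in Dnmt1KO lungs and 5188, 4243 and 4941 in WT lungs. Its scaled values were 14.49 ± 0.12 in Dnmt1KO lungs and 14.38 ± 0.04 in WT lungs (SD, n = 3 each). The groups overlapped, and the fold change was 1.08 with an interval of 0.943 to 1.23 (limma adjusted p = 1). For 6 of the 10 genes, namely Trp53, Mdm2, Mdm4, Btg2, Plk2 and Ppm1d, the interval lay within a 2-fold difference in either direction.

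**Figure D2:**
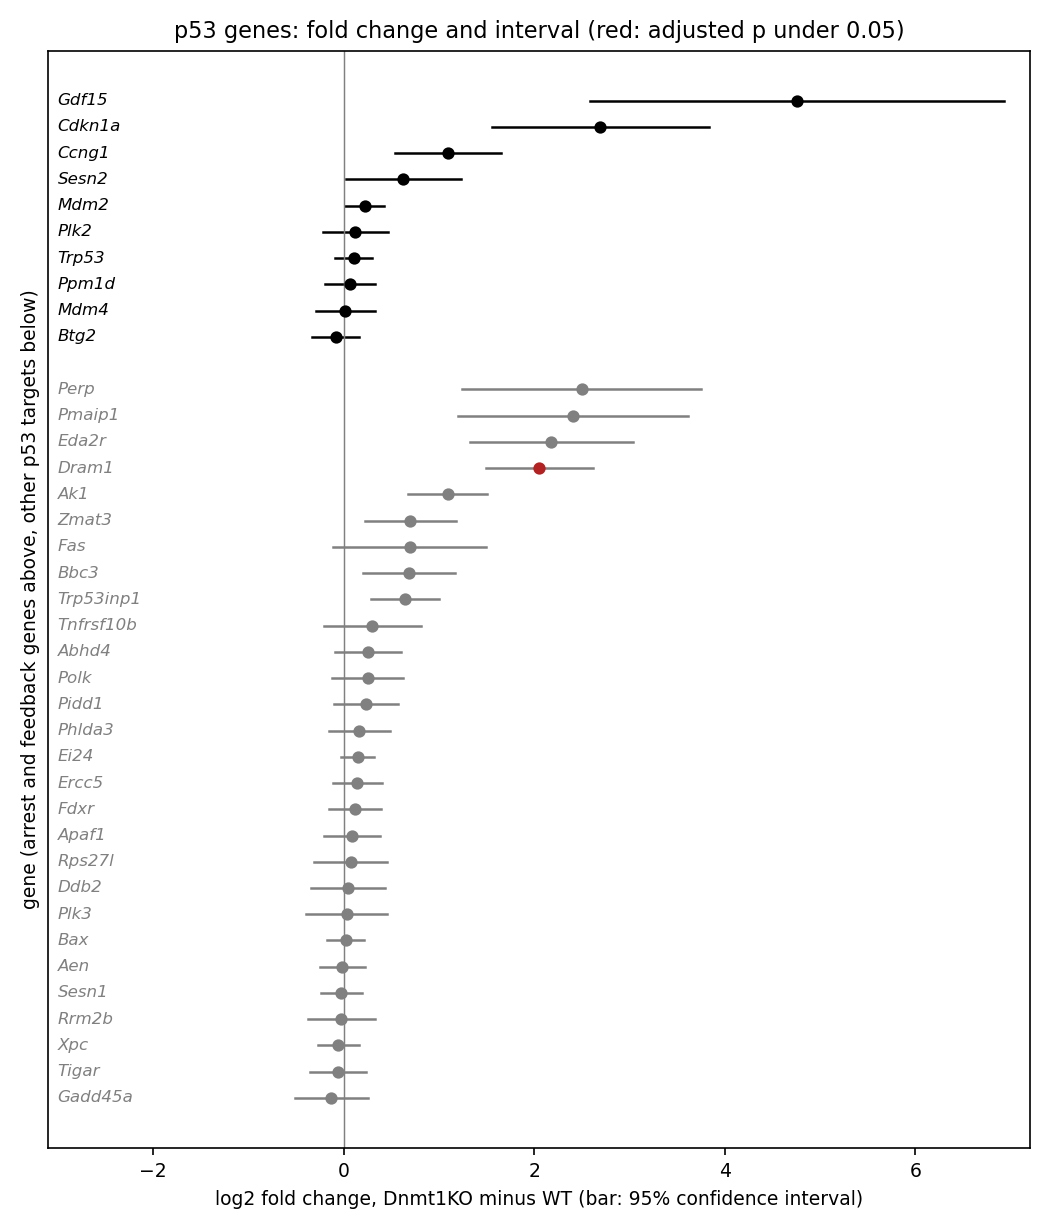
Points are log2 fold changes, Dnmt1KO minus WT, and bars their 95% confidence intervals from limma, for the 10 arrest and feedback genes in black and 28 other p53 target genes in grey. In each set a few genes lie far to the right, Gdf15 at 4.76 and Cdkn1a at 2.69 among the first and Perp at 2.50 among the second, and most lie near 0, with Dram1, in red, the gene past the test.

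The 3 knockout libraries were not alike in these genes. Replicate 1 was the highest of the 3 for 8 of the 10 genes and replicate 3 the lowest for 7. These counts include genes with nearly level values, and the share over all genes was not taken. Dnmt1 stood at 0.892-fold, 0.794-fold and 0.743-fold of the WT mean in Dnmt1KO replicates 1, 2 and 3, and any link to this order was not tested. Without Dnmt1KO replicate 3, Cdkn1a had a log2 fold change of 3.31 (limma adjusted p = 0.000667) and Ccng1 of 1.40 (adjusted p = 0.00613), so both passed the test, while over the other 5 libraries left out in turn their adjusted p ran from 0.291 to 0.581 and from 0.349 to 0.856. Without Dnmt1KO replicate 1, the library of the other sex, Cdkn1a stood at 2.24 (0.291), Ccng1 at 0.89 (0.545), Gdf15 at 4.11 (0.602) and Sesn2 at 0.42 (1). Sample weights were 0.907, 1.72 and 0.602 for Dnmt1KO replicates 1, 2 and 3 and 0.619, 0.846 and 2.03 for WT replicates 1, 2 and 3. With them Cdkn1a (limma adjusted p = 0.0323) and Gdf15 (0.0369) passed.

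**Figure D3:**
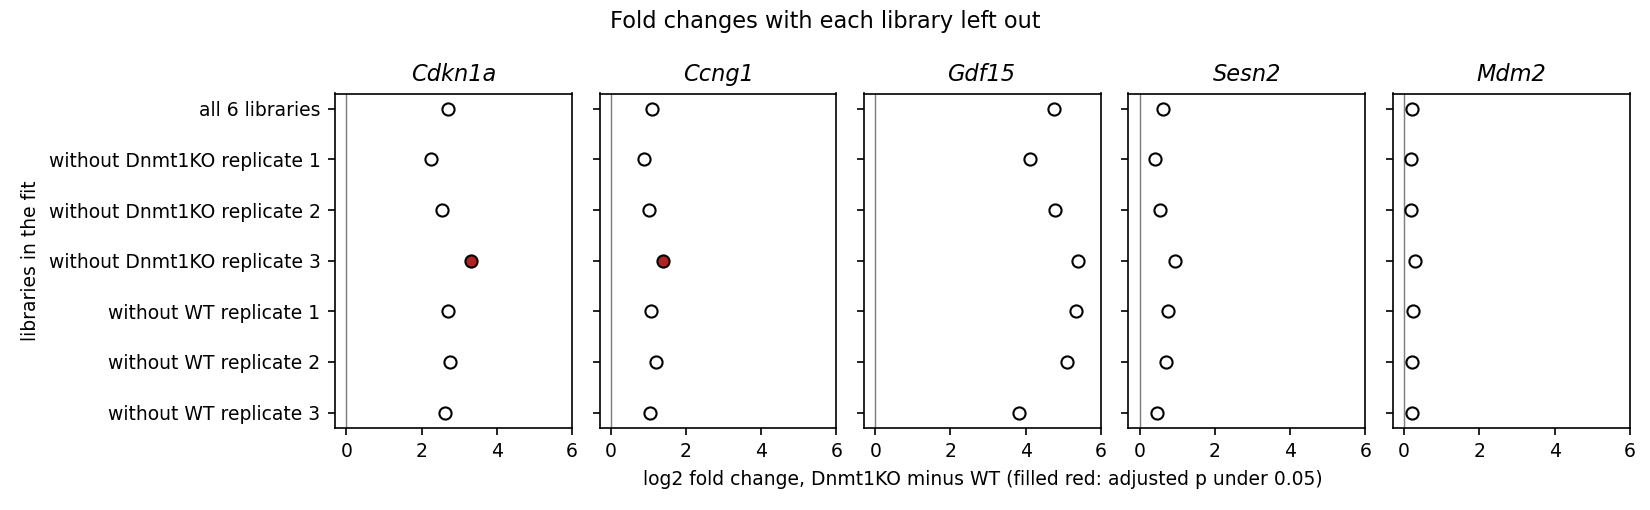
Each point is the log2 fold change of 1 gene, Dnmt1KO minus WT, with all 6 libraries or with 1 left out, and filled red points have an adjusted p under 0.05. The values stay above 0 for all 5 genes drawn, and Cdkn1a, at 3.31, and Ccng1, at 1.40, pass without Dnmt1KO replicate 3.

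Levels of markers of other tissues also differed between libraries. All 4 measured liver markers were higher at an unadjusted p under 0.05, against 2.92% of all genes, and none passed limma's test. Apob, Alb and Apoa1 had 8, 26 and 36 WT reads in all, under the lowest gene total of 60 in these data. Their being measured thus leaned on the Dnmt1KO reads, so that count cannot be weighed against the share of all genes. They stood at a summed 28.6, 17.6 and 14.9 RPM in Dnmt1KO replicates 1, 2 and 3, against 3.01 to 5.29 in WT. None of the 4 was at 0 in any library. The 6 erythroid markers summed to 91.3 to 222 RPM in Dnmt1KO and 70.6 to 124 in WT, with the highest value in Dnmt1KO replicate 3. Heart muscle markers reached 405 RPM in Dnmt1KO replicate 2, with 27.6 and 84.0 in replicates 1 and 3 and 37.5 to 61.7 in WT. Summed markers of mesenchyme, endothelium, mesothelium and macrophages overlapped between the groups. The part of any of these tissues, or of sex, in the values of Cdkn1a, Ccng1 and Gdf15 was not tested.

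Other p53 target genes, from a list of 28 that were all measured, also held a few genes with high values and many near 0. Dram1, which p53 uses to promote autophagy, was the 1 gene that passed the test, higher by 2.06 ± 0.25 on the log2 scale (SE, limma adjusted p = 0.0147). It had 1045, 678 and 746 reads in Dnmt1KO lungs and 204, 181 and 305 in WT lungs. Its adjusted p was 0.0513 without Dnmt1KO replicate 1, 0.0528 without WT replicate 2, 0.129 without the 25% least expressed genes and 0.0836 without trend and robust estimation. The other 27 did not pass in either direction. Of the 28, 22 had a positive change and 6 a negative one, against 7076 positive and 7086 negative among all 14162 genes. The median was 0.157.

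The next genes by p on that list were Ak1, an adenylate kinase (1.10 ± 0.18, adjusted p = 0.0649), Eda2r, a death-domain receptor of the TNF receptor family (2.18 ± 0.37, 0.0764), and Pmaip1, the BH3-only protein Noxa (2.41 ± 0.53, 0.208). In all of them every Dnmt1KO library lay above every WT library, as in 9 of the 28 genes, against 4.79% of all genes. Bax, the effector of mitochondrial cell death, and Sesn1, a relative of Sesn2, had log2 fold changes of 0.024 and -0.022, and both are named here after their values were seen.

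The 5 genes outside the set whose profiles were nearest to that of Cdkn1a, of 12540 genes with a mean of 50 or more reads, were Pmaip1, Perp, Eda2r, Hdc and Afp. Their profiles of log2 values above the WT mean differed from the Cdkn1a profile by a root mean square of 0.31, 0.36, 0.40, 0.48 and 0.57 over the 6 libraries. Within the set the nearest was Ccng1, at 1.18, followed by Sesn2, at 1.50. Afp, which encodes alpha-fetoprotein, is 1 of the liver markers above. The measure counts the size of a difference as well as its order, so a gene with the same order of libraries but smaller differences is further away. Hdc, histidine decarboxylase, had 300, 118 and 30 reads in Dnmt1KO replicates 1, 2 and 3, against 30, 20 and 18 in WT.

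Genes that act on p53 differed little. Of 17 measured, among them the damage kinases Atm, Atr, Chek1 and Chek2 and the ribosomal proteins that bind Mdm2, none passed limma's test or voom, none had an unadjusted p under 0.05, and all lay between -0.18 and 0.11 with a median of 0.008. The smallest p belonged to the deacetylase Sirt1, at 0.09 ± 0.08 (SE), and the next to the kinase Hipk2, at -0.18 ± 0.18. Cdkn2a, whose Arf product inhibits Mdm2, was among the genes looked for and was not analysed here.

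Among 15 measured family relatives, such as the other sestrins, polo kinases and p21-like inhibitors, none passed either test and the median was -0.012. Of the 15, 1 was higher at an unadjusted p under 0.05, against 2.92% of all genes. It was the p53 relative Trp63, with 27, 118 and 48 reads in Dnmt1KO lungs and 6, 19 and 25 in WT lungs (2.08 ± 0.67, limma adjusted p = 0.691). Its WT reads, 50 in all, lay under the lowest gene total of 60. The p21 relatives Cdkn1c and Cdkn1b stood at -0.24 ± 0.16 and -0.01 ± 0.10, and Cdkn2c, the other CDK inhibitor measured, at 0.00 ± 0.19, each with an adjusted p of 1.

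Genes through which p21 slows division were read in 2 lists, and none of them passed the test. Of 12 CDK and cyclin genes 9 had negative changes, with a median of -0.033, and none was called by limma or voom. At an unadjusted p under 0.05, 3 were lower, against 1.60% of all genes. The D-type cyclins Ccnd1 (-0.27 ± 0.08 SE, limma adjusted p = 0.533) and Ccnd2 (-0.25 ± 0.09, 0.833) led them. Of 22 cell cycle genes that the p21 pathway represses, such as Mki67, Top2a and the Mcm genes, 17 were negative, with a median of -0.049 and a range of -0.21 to 0.14. The per-library medians of those 22, relative to the WT mean of each gene, were -0.01, -0.19 and 0.00 in Dnmt1KO replicates 1, 2 and 3 and -0.12, 0.04 and 0.07 in WT replicates 1, 2 and 3, so the groups overlapped. None was called by limma or voom, and Mcm2, a subunit of the replicative helicase, was the one lower at an unadjusted p under 0.05 (-0.21 ± 0.08, adjusted p = 0.968).

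Gdf15, Sesn2, Btg2 and Plk2 also answer to other signals, so the lists for those were read beside them. Of 15 integrated stress response genes none passed limma or voom, and the median was 0.116. At an unadjusted p under 0.05, 3 were higher, against 2.92% of all genes. Among the 3 was Nupr1, with 53 WT reads in all, under the lowest gene total of 60. Asns, the asparagine synthetase, had the smallest p, at 0.44 ± 0.08 (SE, limma adjusted p = 0.113), with 939, 994 and 1142 reads in Dnmt1KO lungs and 951, 762 and 908 in WT lungs, and Cebpb came next (0.42 ± 0.13, 0.67). Of 13 immediate early genes none passed limma or voom, and the median was 0.072. At an unadjusted p under 0.05, 1 was higher and 1 lower, against 2.92% and 1.60% of all genes. They were Fos (1.17 ± 0.35, limma adjusted p = 0.585) and Jun (-0.38 ± 0.14, 0.857).

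**Figure D4:**
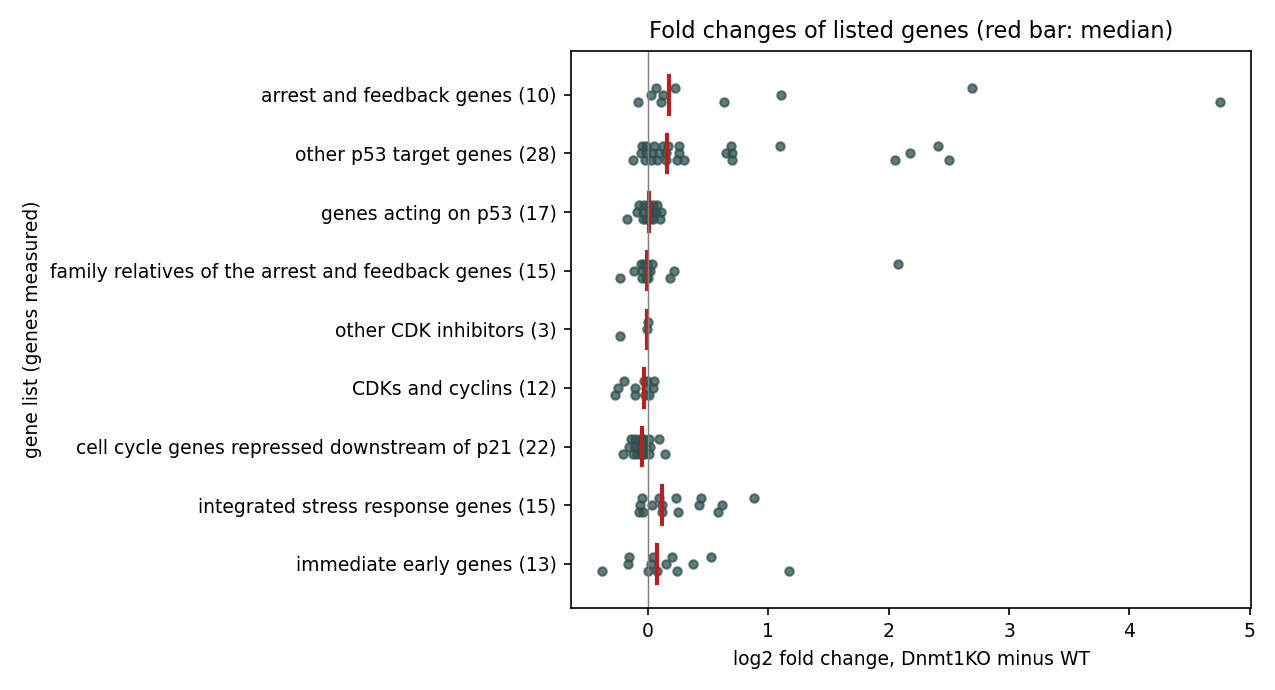
Points are log2 fold changes of single genes, Dnmt1KO minus WT, in 9 lists, with red bars at the medians and the number of measured genes in brackets, and some genes stand in more than 1 list. The p53 target lists reach to 4.76 and 2.50, while the genes acting on p53 stay between -0.18 and 0.11 and those repressed downstream of p21 between -0.21 and 0.14.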

How the data were processed

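Per the file headers, each of the 6 libraries has 1 table of Ensembl gene identifiers and a signal, read as log2 values from a range of 1.0 to 18.44. Per the submitters' processing notes the tools were STAR and limma and the build mm9; the sources used here do not give the counter, annotation, filter or scaling. For each of the 14162 genes, 2 raised to the deposited log2 value was a whole number plus 0.5, times a constant of the library, within 1e-06; these whole numbers are called reads. The lowest gene total was 60 reads, so weaker genes were not analysed here. Symbols came from GENCODE for GRCm38 and named 13967 identifiers.

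The log2 values were fitted with limma 3.58.1 (R 4.3.3) with genotype as the only term, with trend and robust moderation, two-sided, with Benjamini-Hochberg adjustment over all genes and a threshold of 0.05. Standard errors and 95% intervals are from that fit; the counting interval is exact Clopper-Pearson and covers counting error only. The fit was tested on simulated data with known changes. With 3 libraries against 3 no exact permutation test can go below p = 0.1, so none is given. Lists are described by counts and medians without a set test.

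The named genes were the 10, those of each other list with the smallest p (up to 4) or past the threshold, Dnmt1, and the 5 nearest profiles to Cdkn1a. The genes, lists, alternatives and promoter search were chosen with earlier results of these data known. Alternatives were a replicate block, removal of the 25% least expressed genes, quantile normalization, median centring, scaling to total reads (log2 of RPM plus 0.5), an offset of 2 reads, no trend or robust moderation, sample weights, and leaving out each library. voom on the reads, with the authors' scaling in place of the TMM factors planned, was added after the data were seen. Promoter sequences are RefSeq's, GRCm38.p6, matched by symbol; no position is given in the files' build.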

Additional observations from a re-analysis of the deposited data

How the results depend on the processing

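Across the 15 alternatives the median log2 fold change of the 10 genes ran from 0.117 to 0.268, none of the 10 was called lower, and the directions of Trp53, Mdm2, Cdkn1a, Ccng1, Btg2, Sesn2, Gdf15 and Plk2 did not turn. Of the 10, 2 were called higher with sample weights, and between 0 and 2 as each library was left out. Ppm1d turned to -0.042 with sample weights, and ran from -0.0089 to 0.15 as libraries were left out, as Mdm4 did from -0.083 to 0.14. Hipk2 turned to 0.0059 with sample weights and ran from -0.30 to 0.0053 with libraries left out. Gdf15 has no value without the 25% least expressed genes, a step that left 10621 genes and called 0 higher and 0 lower, with 308 at an unadjusted p under 0.05. Over all genes, 40 higher and 1 lower became 24 higher with voom, 12 lower with sample weights and 0 lower without trend or robust moderation. Leaving out each library gave 15 to 42 higher and 0 to 17 lower. The causes of these shifts were not tested. Deviations of same-numbered libraries from their group means had r of -0.00274, -0.18 and 0.306 across genes for replicates 1, 2 and 3. The largest r was 0.379, for Dnmt1KO replicate 2 with WT replicate 1. Within a group the deviations of each gene sum to 0, so these r are tied together and cannot decide whether samples were paired. The labels give replicate numbers without stating a pairing, and the main fit used none. With the replicate block 26 genes were called higher and 0 lower, of the 10 genes 1 was called higher, Gdf15 (limma adjusted p = 0.0493), and Dram1 did not pass (0.138). The planned voom fit with TMM factors was not run. Counts limit Gdf15, with 6 WT reads in all.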
